A study of Mus musculus with 16 samples.

Results

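The libraries described here are those of 8 sham mouse hearts, set side by side by their level of Arntl, the gene for BMAL1, the activator at the centre of the circadian clock. Levels are in CPM, the count of a gene per 1000000 counts of its library. The sets were chosen by the measured Arntl level: sham libraries with 10 CPM or more were put in an Arntl-high set and those below in an Arntl-low set. The Arntl-high set held 3 of the 8 sham libraries, namely sham vehicle replicates 3 and 4 and sham NMN replicate 4. The Arntl-low set held the other 5, sham vehicle replicates 1 and 2 and sham NMN replicates 1, 2 and 3. The whole series has 16 libraries. Because a measured value made the sets, differences between them are given as description, with no test.

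Total RNA of whole hearts from wild-type male C57BL/6 mice, 8 weeks of age, was sequenced in 4 groups of 4. Sham vehicle mice had saline at both injections, and sham NMN mice had nicotinamide mononucleotide (NMN, a precursor of the coenzyme NAD) at 500 mg/kg and then saline, all into the peritoneum. The other 8 mice had doxorubicin, an anthracycline that injures heart muscle, at 15 mg/kg, 30 min after saline or NMN. Hearts were taken at 5 days, from animals kept on 12 h of light and 12 h of dark with free access to food. No time of day, harvest date, extraction or sequencing run is given in the sources used here, so hour of harvest and any batch that followed the sets cannot be told apart. In bulk tissue, fewer cells of a type and less RNA per cell cannot be told apart either.

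The sham libraries held 14.1 M to 16.1 M counts, so 3 counts stood for 0.186 to 0.213 CPM. Sham replicates of the same treatment differed by a chi-square per gene of 3.80 to 7.56 when both lay in one set (5 pairs) and of 13.5 to 24.1 when they lay in different sets (7 pairs). Cardiomyocyte markers did not separate the sets, with summed levels of 48474 to 54331 CPM in Arntl-high and 50162 to 54329 CPM in Arntl-low hearts. The labels number the mice's replicates and say no more about them, so the p-values further on measure only the spread between these samples.

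The circadian clock is a feedback loop that runs in almost every cell, heart muscle included. BMAL1 pairs with CLOCK or NPAS2 on E-box sequences and switches on the Per and Cry genes, whose proteins then shut BMAL1 and CLOCK off. The same activators drive the nuclear receptors REV-ERBα and REV-ERBβ (Nr1d1, Nr1d2), which compete with ROR receptors at ROR elements and repress Arntl, and the factors DBP, TEF and HLF, which bind D-boxes. Through this wiring Arntl and the Per and Dbp transcripts peak at roughly opposite times of day in most tissues, and in the heart the clock is known to time metabolism, growth and ion channel genes.

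Promoters of 5 genes show the elements of that wiring among the genes that separated the sets. They are RefSeq windows on GRCm38.p6, from 250 bases before to 50 after an annotated start, written 5′ to 3′ on the gene's strand, with the matched letters in capitals. The capitals mark the ROR element core (TAGGTCA, read as TGACCTA on the other strand) in Arntl and Nfil3, the E-box (CACGTG) in Ciart and Per1, and the D-box (TTATGTAA) in Per3.
Arntl, chr7:113207261-113207560, plus strand: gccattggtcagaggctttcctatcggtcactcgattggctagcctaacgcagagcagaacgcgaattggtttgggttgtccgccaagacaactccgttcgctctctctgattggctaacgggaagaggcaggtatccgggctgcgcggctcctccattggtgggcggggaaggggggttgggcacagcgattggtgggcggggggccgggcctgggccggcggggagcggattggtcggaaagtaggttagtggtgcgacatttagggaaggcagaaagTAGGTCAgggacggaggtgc
Nfil3, chr13:52980990-52981289, minus strand: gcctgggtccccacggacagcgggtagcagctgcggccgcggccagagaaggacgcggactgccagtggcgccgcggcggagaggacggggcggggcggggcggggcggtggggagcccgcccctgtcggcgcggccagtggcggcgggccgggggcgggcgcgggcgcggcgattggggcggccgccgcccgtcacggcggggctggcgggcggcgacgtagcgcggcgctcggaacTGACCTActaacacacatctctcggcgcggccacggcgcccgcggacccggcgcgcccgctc
Ciart, chr3:95882179-95882478, minus strand: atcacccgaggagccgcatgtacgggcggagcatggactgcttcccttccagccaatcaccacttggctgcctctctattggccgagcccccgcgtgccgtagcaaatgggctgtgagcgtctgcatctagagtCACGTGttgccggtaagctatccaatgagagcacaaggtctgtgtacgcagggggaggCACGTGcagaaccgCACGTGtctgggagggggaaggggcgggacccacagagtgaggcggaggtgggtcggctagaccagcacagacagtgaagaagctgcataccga
Per1, chr11:69098699-69098998, plus strand: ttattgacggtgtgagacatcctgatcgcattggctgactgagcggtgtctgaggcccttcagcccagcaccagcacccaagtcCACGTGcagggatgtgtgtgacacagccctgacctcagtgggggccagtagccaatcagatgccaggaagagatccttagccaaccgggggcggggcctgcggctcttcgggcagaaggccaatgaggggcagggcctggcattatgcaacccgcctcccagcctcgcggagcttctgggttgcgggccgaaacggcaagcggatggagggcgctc
Per3, chr4:151044616-151044915, minus strand: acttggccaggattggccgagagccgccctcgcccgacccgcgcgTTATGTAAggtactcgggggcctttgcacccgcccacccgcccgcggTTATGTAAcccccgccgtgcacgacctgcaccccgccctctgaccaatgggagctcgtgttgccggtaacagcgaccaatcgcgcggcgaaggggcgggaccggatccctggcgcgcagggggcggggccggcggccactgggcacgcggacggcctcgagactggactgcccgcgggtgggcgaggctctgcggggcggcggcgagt
Both strands were searched for CACGTG, for TTATGTAA or TTACGTAA, and for TAGGTCA or TGGGTCA. Of 32851 such windows in the mouse, 7.15% held the E-box, 1.06% the D-box and 6.45% the ROR core, and of 27025 genes with a window 8.09%, 1.23% and 7.35% held each in at least 1. Of the 10 clock genes lower in Arntl-high hearts by the rule given next, 9 had a window, and the E-box lay in 3 (Ciart, Per1 and Tef), the D-box in 1 (Per3) and the ROR core in 0. Of the 3 clock genes higher there, the ROR core lay in 2 (Arntl and Nfil3). Clock genes that did not separate 2-fold held elements too, the E-box in Cry1 and Bhlhe41 and the D-box in Timeless. A match of letters is a description of the window and not a measured binding site, and windows of other annotated starts of a gene need not hold it.

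Across 29 genes of the clock, 27 had a mean of at least 1 CPM in sham hearts (Fbxl21 and Rorb did not). Of these 27, 13 differed at least 2-fold between the sets with no overlap of their libraries: Arntl, Npas2 and Nfil3 were higher in Arntl-high hearts, and Per1, Per2, Per3, Cry2, Nr1d2, Dbp, Tef, Hlf, Ciart and Usp2 were lower. Without Arntl, whose level made the sets, that is 12 of 26. Fold is here the difference of mean log2 CPM with a prior count of 2. Among all 13105 genes with that mean level, 79 were higher (0.603%) and 131 lower (1.0%), together 1.60%, and since these counts come from the contrast that chose the sets, nothing is read from the shares. The median log2 difference over all genes was 0.006.

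**Figure D1:**
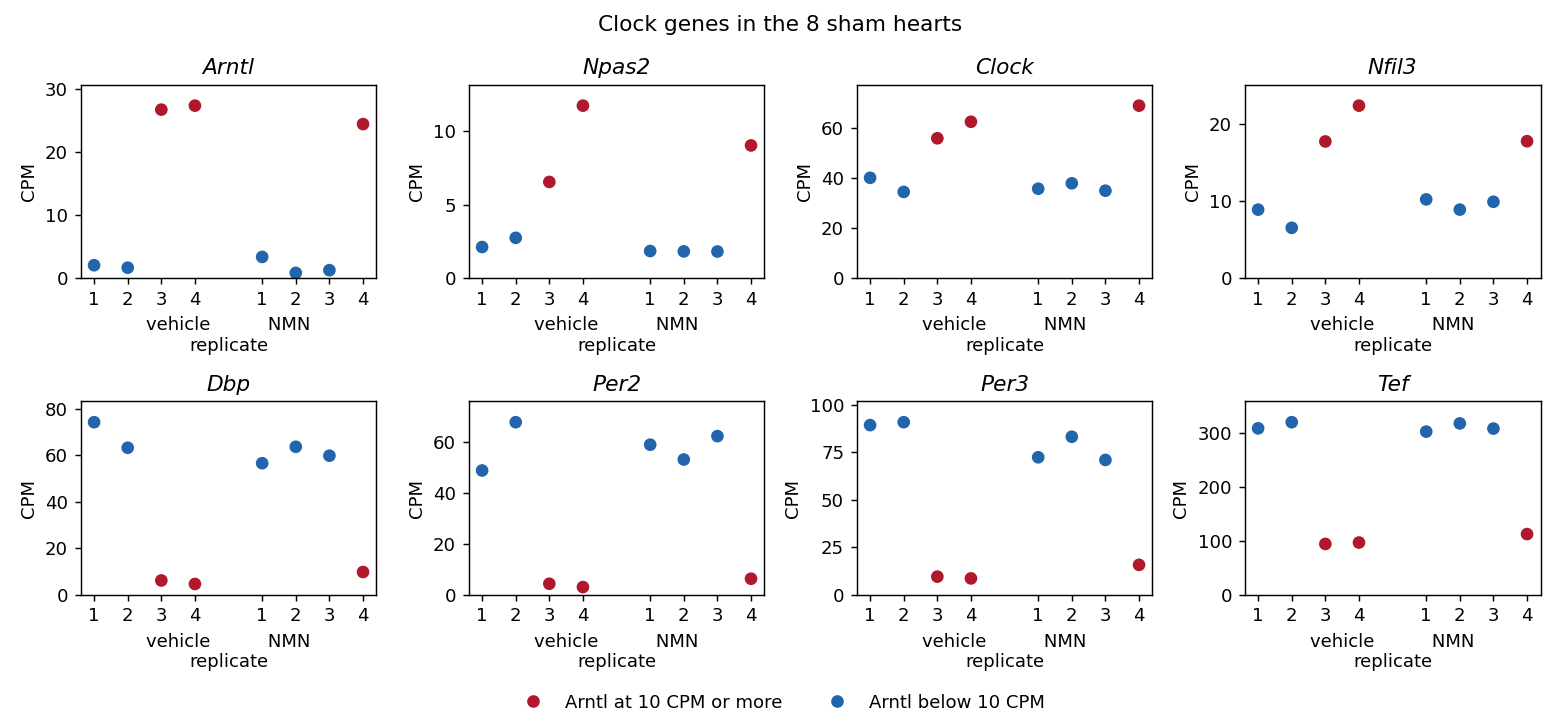
Level in CPM of 8 clock genes in each of the 8 sham libraries, by treatment and replicate. Each point is 1 library, red for the Arntl-high and blue for the Arntl-low set, and Arntl-high libraries sit at 24.4 to 27.3 CPM of Arntl and 3.04 to 6.32 CPM of Per2, and Arntl-low libraries at 0.846 to 3.37 and 48.9 to 67.9.

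Arntl (ENSMUSG00000055116.8, GRCm38 chr7:113207465-113314126, plus strand) stood at 26.7 and 27.3 CPM in sham vehicle replicates 3 and 4 and at 24.4 CPM in sham NMN replicate 4. In the Arntl-low set it stood at 2.06 and 1.67 CPM in sham vehicle replicates 1 and 2 and at 3.37, 0.846 and 1.28 CPM in sham NMN replicates 1 to 3. No sham library fell between 3.37 CPM, the highest just outside the threshold, and 24.4 CPM, the lowest just inside, and the means were 26.1 ± 1.54 (SD, n = 3) and 1.85 ± 0.966 CPM (SD, n = 5), a ratio of 14.2. An antisense gene, Gm45355, shares exon sequence with Arntl, and in libraries that do not keep the strand their reads cannot be told apart.

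BMAL1's partners went the same way. Npas2, which can replace CLOCK in the heterodimer, was at 6.53, 11.7 and 9.01 CPM in the Arntl-high libraries and at 2.12, 2.74, 1.85, 1.82 and 1.81 CPM in the Arntl-low ones, a log2 difference of 2.05. Clock was at 56.0, 62.7 and 69.1 CPM against 40.2, 34.6, 35.8, 38.0 and 35.1 CPM. Neither gene's sets overlapped, but the difference of Clock, 0.76 on the log2 scale, was under 2-fold. Arntl2, the paralog of Arntl, overlapped between the sets, with a log2 difference of 0.19.

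The repressors of the loop were lower in the Arntl-high hearts, with Cry1 as the exception. Per2, a period protein that carries the negative arm of the loop, was at 4.34 and 3.04 CPM in sham vehicle replicates 3 and 4 and 6.32 CPM in sham NMN replicate 4. In Arntl-low hearts Per2 was at 48.9, 67.9, 59.0, 53.2 and 62.4 CPM, so the means differed 12.8-fold (log2 difference -3.69), the lowest among the 27 clock genes. Per3 was at 9.55, 8.62 and 15.8 CPM against 89.3, 90.9, 72.4, 83.2 and 71.0 CPM, a log2 difference of -2.88. Within the Arntl-high set sham NMN replicate 4 was the highest library for both genes. Per1, the period gene that also answers to glucocorticoids and other acute signals, was more spread in the Arntl-high set, at 25.8, 14.3 and 40.7 CPM, against 96.5, 96.6, 88.2, 86.8 and 99.5 CPM. Its log2 difference was -1.91. Cry2, a cryptochrome, was at 19.7, 15.5 and 22.7 CPM against 48.4, 45.8, 44.3, 39.9 and 43.0 CPM, a log2 difference of -1.21. Cry1 ran from 12.7 to 15.1 CPM in Arntl-high and from 14.5 to 16.4 CPM in Arntl-low hearts, and the sets overlapped.

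The nuclear receptors split. Nr1d2, which encodes REV-ERBβ, was at 52.0, 52.7 and 84.4 CPM in Arntl-high hearts and at 166, 181, 169, 192 and 180 CPM in Arntl-low ones, a log2 difference of -1.53. Nr1d1, which encodes REV-ERBα, stood the other way, at 64.7, 57.7 and 81.5 CPM against 54.4, 35.0, 40.4, 52.0 and 41.8 CPM (log2 difference 0.61). Its sets did not overlap, by a margin of 57.7 to 54.4 CPM. Exon sequence of Nr1d1 overlaps Thra on the opposite strand, so part of this level may count reads of Thra, which cannot be told apart here. Rora, a receptor that activates Arntl at the elements REV-ERBs repress, had a log2 difference of -0.54 without overlap.

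The output factors of the D-box were all lower. Dbp was at 6.16, 4.65 and 9.79 CPM in the Arntl-high hearts and at 74.2, 63.3, 56.6, 63.7 and 59.8 CPM in the Arntl-low hearts. Its means of 6.87 ± 2.64 (SD, n = 3) and 63.5 ± 6.65 CPM (SD, n = 5) differed 9.25-fold. Dbp shares exon sequence with Sphk2 on the opposite strand. Tef, its relative, was at 94.5, 97.1 and 113 CPM against 309, 321, 303, 319 and 309 CPM, with means of 101 ± 9.91 (SD, n = 3) and 312 ± 7.28 CPM (SD, n = 5). Hlf, the third of the family, was at 22.5, 24.4 and 23.8 CPM against 52.3, 72.0, 57.6, 61.5 and 52.0 CPM. Nfil3, the repressor that competes with these factors for D-boxes, was higher, at 17.8, 22.4 and 17.8 CPM against 8.91, 6.55, 10.3, 8.92 and 9.94 CPM.

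Among the remaining regulators, Ciart, a repressor of CLOCK and BMAL1, was at 2.89, 2.11 and 2.20 CPM in Arntl-high hearts against 13.8, 12.4, 10.8, 13.0 and 12.8 CPM. Usp2, a deubiquitinase under clock control, was at 82.3, 70.5 and 83.2 CPM against 155, 179, 171, 167 and 168 CPM. Bhlhe41, a repressor at E-boxes, was lower without overlap but by less than 2-fold (log2 difference -0.58). Bhlhe40, Csnk1d, Csnk1e, Btrc, Timeless and Nono overlapped between the sets. Over all 27 clock genes 6 were higher without overlap, 13 lower and 8 overlapping, where among all genes 10.2% were higher and 11.0% lower without overlap at any size, together 21.2%.

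**Figure D2:**
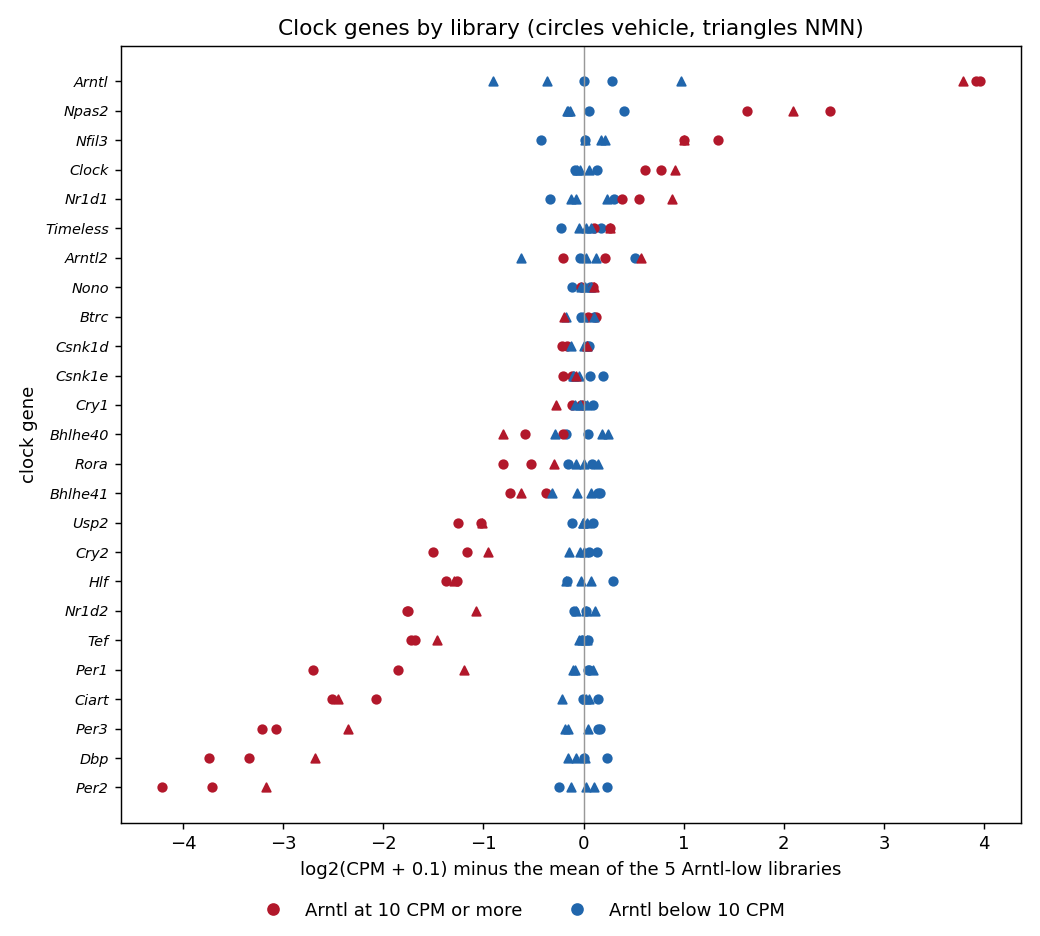
Each sham library's log2 of CPM plus 0.1, less the mean of the 5 Arntl-low libraries, for 25 of the 27 clock genes with a mean of at least 1 CPM, ordered from the highest in Arntl-high hearts to the lowest. Points are libraries (circles vehicle, triangles NMN, red Arntl-high, blue Arntl-low). The red points leave the blue ones for Arntl, Npas2, Nfil3, Clock and Nr1d1 on one side and for the genes from Rora down to Per2 on the other. The gap is narrow for Nr1d1 and Bhlhe41.

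The label of the set, a phase of the clock, rests on Arntl, Dbp and Per3, and Dbp and Per3 were low in the 3 libraries where Arntl was high. Nr1d1 and Cry1 did not follow Dbp and the Per genes. The files hold 2 levels and no times, so the sets are named by their Arntl level.

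Genes known as outputs of the clock in heart or other tissues followed in part: of 18, 2 were called higher, 6 lower, and the median log2 difference was -0.53. Of all genes 0.603% were called higher and 1.0% lower, and the list was chosen with earlier results known, so its counts are description only. Wee1, a kinase that holds the cell cycle before mitosis, was at 10.4, 10.4 and 9.93 CPM in Arntl-high against 26.3, 37.9, 32.3, 30.4 and 33.4 CPM in Arntl-low hearts. Herpud1, of the endoplasmic reticulum stress response, had a log2 difference of -1.35. The other members called lower were Tsc22d3, Klf15, Pik3r1 and Gpcpd1, with differences of -1.15, -1.15, -1.0 and -1.0. Slc41a3, a magnesium transporter, was at 97.2, 116 and 96.2 CPM against 35.8, 28.8, 29.7, 27.5 and 26.7 CPM, and Leo1, of the transcription elongation complex PAF1, at 22.3, 25.8 and 20.2 CPM against 9.16, 7.82, 9.10, 9.18 and 8.66 CPM. Nampt, the rate-limiting enzyme of NAD salvage that makes NMN, averaged 240 ± 12.8 CPM (SD, n = 3) in Arntl-high and 349 ± 33.4 CPM (SD, n = 5) in Arntl-low hearts. Its sets did not overlap, at a log2 difference of -0.54. Of 14 measured genes of NAD synthesis and use, 0 reached 2-fold, 2 were higher and 2 lower without overlap. Among all genes 10.2% were higher and 11.0% lower without overlap.

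**Figure D3:**
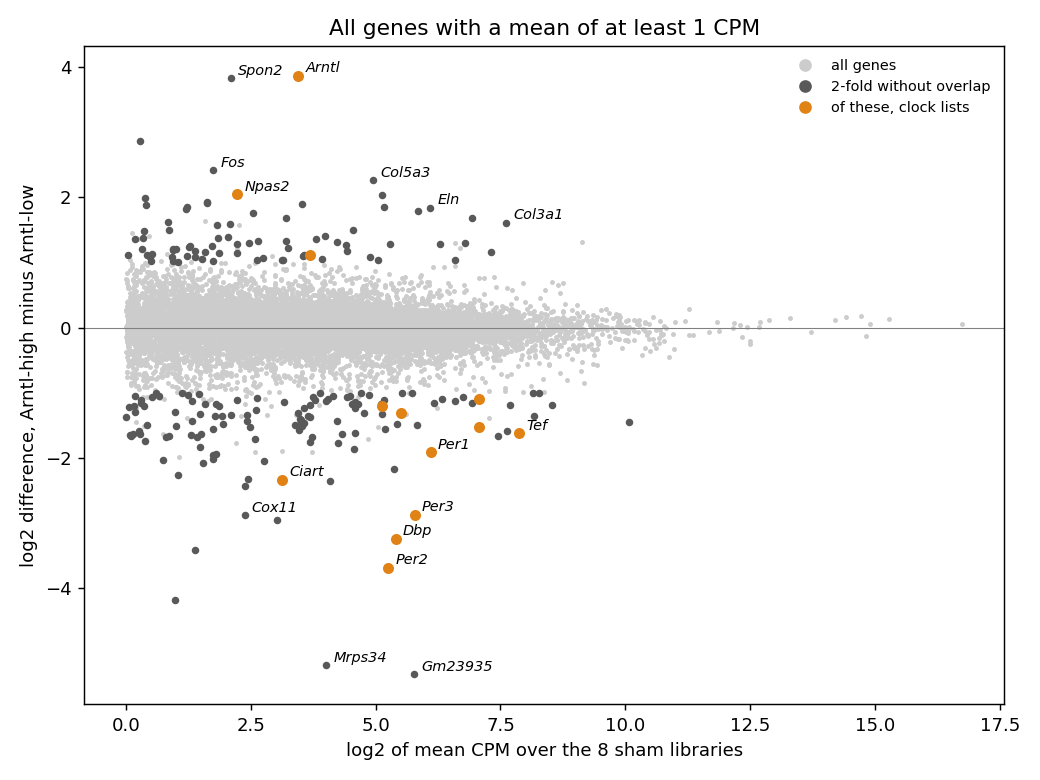
Log2 difference, Arntl-high minus Arntl-low sham hearts, against log2 of mean CPM over the 8 sham libraries, for 13105 genes. Dark points are the 210 genes past 2-fold without overlap and orange points the 13 of them in the clock lists; Mrps34 and Gm23935 lie below Per2 and Dbp, and Spon2 lies beside Arntl.

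Beyond the clock, several of the highest differences belonged to matrix and immediate early genes. Spon2, a secreted matrix protein, was at 10.9, 14.2 and 6.10 CPM in Arntl-high hearts and between 0.403 and 0.781 CPM in Arntl-low ones, a log2 difference of 3.83. Col5a3, a fibrillar collagen chain, was at 62.6, 64.9 and 55.6 CPM against 12.3, 10.3, 13.3, 13.0 and 14.4 CPM. Eln, the gene for elastin, was at 96.6, 134 and 141 CPM against 30.5, 25.7, 41.1, 31.5 and 44.1 CPM. Adam19, a membrane metalloprotease, had a log2 difference of 2.04, and Aplnr, the apelin receptor, 1.84. Prdm1, a transcriptional repressor, and Tmem171 had differences of 1.91 and 1.93. The matrix list as a whole had 12 of 18 genes higher without overlap, 5 of them past 2-fold, with a median of 0.69. Lower past 2-fold was 1, Timp3, an inhibitor of metalloproteases, at -1.19. Of all genes 10.2% were higher and 11.0% lower without overlap, and 0.603% were higher past 2-fold. The list was chosen with earlier results of these data known, so its counts are given as description only. Col3a1 was at 242, 382 and 395 CPM against 121, 88.9, 104, 118 and 116 CPM.

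Some markers of fibroblasts and vessel wall cells were also higher. Summed fibroblast markers were at 959 to 1557 CPM in Arntl-high and 765 to 838 CPM in Arntl-low hearts, with 4 of 6 higher without overlap and 2 of these past 2-fold (Col1a1 and Col3a1, which also stand in the matrix list). Dcn and Pdgfra, fibroblast markers too, overlapped, with Dcn at 396 to 644 CPM in Arntl-high and 421 to 535 CPM in Arntl-low hearts. Summed smooth muscle and pericyte markers were at 1020 to 1166 against 770 to 883 CPM, but of 5 measured members only Acta2 separated without overlap (202, 191 and 245 CPM against 81.9, 68.5, 53.0, 62.7 and 67.0 CPM). Summed endothelial markers were at 1071 to 1200 against 986 to 1056 CPM, with 2 of 6 members higher without overlap. Among all genes 10.2% were higher without overlap and 0.603% were higher past 2-fold, and these marker lists are short. The part of these cell types in the matrix differences was not tested. Macrophage sums overlapped, at 131 to 152 and 134 to 171 CPM, as did those of erythroid markers, at 340 to 550 and 231 to 522 CPM, and atrial markers, at 108 to 325 and 186 to 315 CPM. Skeletal muscle sums were at 1589 to 2745 against 1090 to 1510 CPM with each of its 3 measured members overlapping. T cell and lung markers had 0 members at a mean of 1 CPM, and of B cell markers only Ighm did (log2 difference 1.04).

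Acute-response genes did not move as a block. Fos was at 4.27, 6.38 and 9.58 CPM in Arntl-high hearts and 3.24, 0.468, 0.891, 0.977 and 1.07 CPM in Arntl-low ones, so sham vehicle replicate 1 came close to the other set. Egr1 was higher too, at a log2 difference of 1.90, while Nr4a3 and Nr4a1, orphan nuclear receptors induced by similar stimuli, were lower at -2.33 and -1.05. Of 11 measured immediate early genes 2 were called higher, 2 lower, and the median was -0.03. Of 13 glucocorticoid-responsive genes 3 were called lower and 0 higher, with a median of -0.57. Among all genes 0.603% were called higher and 1.0% lower, and the counts of both lists are description only. Fkbp5, a chaperone that damps the glucocorticoid receptor, was at 27.5, 19.7 and 28.9 CPM against 34.5, 64.3, 96.7, 75.2 and 111 CPM. Zbtb16, another target of the receptor, overlapped, since sham vehicle replicate 1 (81.7 CPM) lay below sham NMN replicate 4 (82.9 CPM). Corticosteroids themselves follow a daily rhythm in mice, and none was measured here.

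In the lists for temperature, metabolism and ion channels few genes reached 2-fold. Heat shock and cold-inducible genes, which follow body temperature, overlapped in 14 of 14 with a median of -0.00. Of 13 genes of fatty acid use under PPARα, 0 reached 2-fold and 1 was higher without overlap. Of 13 insulin and glucose genes, 6 were lower without overlap, where 11.0% of all genes were. Past 2-fold was 1 of them, Pfkfb1 (log2 difference -1.07), while Slc2a1, the basal glucose transporter GLUT1, was at -0.93. Of 18 ion channel genes 4 were lower and 1 higher without overlap, where 11.0% and 10.2% of all genes were, and 0 reached 2-fold. Kcnip2, a channel subunit that is a known clock output in mouse ventricle, ran from 161 to 180.1 CPM in Arntl-high and from 148 to 167 CPM in Arntl-low hearts. Interferon-stimulated genes were higher without overlap in 5 of 12 and cholesterol synthesis genes in 5 of 10, where 10.2% of all genes were. All of these were under 2-fold, with list medians of 0.39 and 0.37, and 1 cholesterol gene, Fdft1, was lower without overlap (29.1 to 32.6 against 37.0 to 42.1 CPM).

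Gm23935 and Mrps34 lay below every clock gene. Mrps34 (GRCm38 chr17:24895116-24897502, plus strand), a protein of the mitochondrial ribosome, was at 0.440, 0.434 and 0.923 CPM in Arntl-high hearts and at 26.7, 20.4, 27.8, 28.3 and 23.7 CPM in Arntl-low hearts. The means differed 42.4-fold, and the annotated transcript is 1884 bases long. Gm23935, annotated in GENCODE as a microRNA gene of 57 bases, was at 2.26, 0.744 and 1.92 CPM against 19.0 to 190 CPM. Scand1 had 0, 0 and 0.142 CPM, under the level of 3 counts, against 1.18 to 4.08 CPM. Cox5a, a subunit of cytochrome c oxidase, was at 64.7, 74.6 and 82.8 CPM against 221, 231, 237, 236 and 247 CPM, and Cox11, an assembly factor of that enzyme, at 1.32, 0.992 and 0.497 CPM against 4.18 to 10.6 CPM. Most listed members of their pathways were not called. Of 22 mitochondrial ribosomal proteins 2 were called lower (Mrps34 and Mrps24) and 20 were not called, with a list median of 0.10. Of 29 nuclear genes of oxidative phosphorylation 2 were called lower (Cox5a and Cox11) and 27 were not called, with a median of 0.11. Among all genes 1.0% were called lower. Mrps34, Scand1 and Cox11 each share exon sequence with a gene on the opposite strand, and Mrps34 also with Nme3 on the same strand. Mrps24 shares exon sequence with Urgcp on the same strand. Rgcc, Nr4a3, Nrtn, Fam107a and Zfp771 completed the lowest 12, at log2 differences of -2.16 to -2.95.

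Library composition also differed between the sets. Mitochondrially encoded genes took 27.3% to 27.4% of all counts in the Arntl-high libraries and 25.3% to 25.8% in the Arntl-low libraries, without overlap. Of 13105 genes, 13102 were matched to a GENCODE transcript, and genes lower in Arntl-high hearts had a median length of 2176 bases where all genes had 3390. In the GC decile of highest content 2.59% of genes were called lower, and in the other deciles 0.458% to 1.30%. The decile with the shortest transcripts had 2.82% called lower although its median difference was 0.085, and the median fell along length to -0.105 in the longest. The 10 lower clock genes had a median length of 4533 bases. Centred within bins of GC content and length, a step chosen after seeing the data, the differences were 3.89 for Arntl, -3.63 for Per2, -3.26 for Dbp and -2.85 for Per3. They were as little moved for Mrps34 (-5.19), Scand1 (-4.20), Cox11 (-2.97) and Cox5a (-1.69). The part of the mitochondrial share in these differences was not tested.

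**Figure D4:**
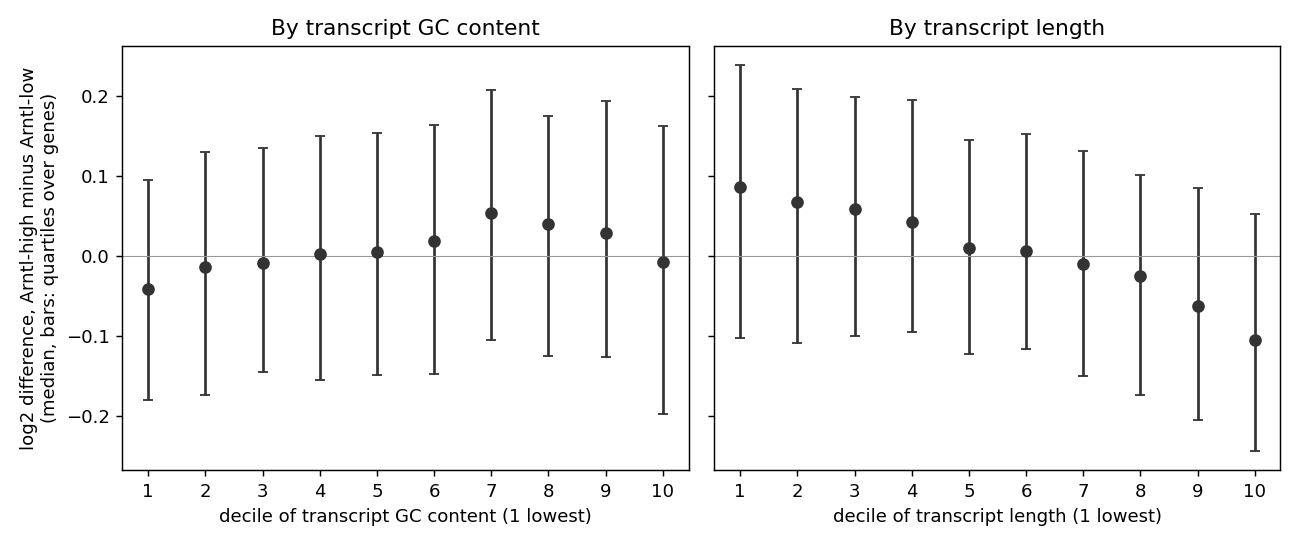
Median log2 difference, Arntl-high minus Arntl-low sham hearts, in deciles of genes by transcript GC content (left) and by transcript length (right), with bars from the lower to the upper quartile over genes. Medians fall with length from 0.085 to -0.105 and stay within -0.04 and 0.05 along GC content.

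In the doxorubicin hearts, which the sham sets did not use, some genes kept the sham combination and others did not. By the same threshold 2 of 8 libraries were Arntl-high, doxorubicin vehicle replicates 3 and 4 at 29.0 and 28.5 CPM. Replicates 1 and 2 of that group were at 8.70 and 9.51 CPM, just under the threshold and above every Arntl-low sham heart. Doxorubicin NMN hearts were at 6.85, 1.48, 1.87 and 8.48 CPM. Both Arntl-high doxorubicin hearts are from the vehicle group, so in the comparison over all 8 the set and NMN cannot be told apart.

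Dbp and Mrps34, low in the same sham libraries, did not go together there. Dbp was low in all 4 doxorubicin vehicle hearts, at 8.25, 7.81, 6.58 and 4.39 CPM, while Mrps34 was at 29.4 and 30.5 CPM in the first pair and at 6.77 and 0.244 CPM in the second. Gm23935, Scand1, Cox11 and Cox5a were, like Mrps34, lower without overlap in the second, Arntl-high pair, the direction of sham hearts. Their log2 differences were -4.21, -3.96, -2.51 and -0.96. Nr4a3, lower in Arntl-high sham hearts, was higher in that pair, at 2.94. In doxorubicin NMN replicate 1 Dbp was at 24.6 CPM with Mrps34 at 18.4 CPM, and in replicate 4 Dbp was at 19.4 CPM with Mrps34 at 0.718 CPM. Within doxorubicin vehicle some clock genes had the sham direction in the Arntl-high pair. Per3, Dbp, Tef, Hlf, Usp2 and Bhlhe41 were lower there without overlap, at log2 differences of -0.67, -0.57, -0.60, -0.53, -0.72 and -1.51. Only Bhlhe41 of these was past 2-fold, and 62.9% of all genes were lower at any size in that comparison. With a pair of libraries against a pair, a lack of overlap arises easily, and its share among all genes was not computed. Per2 in doxorubicin vehicle overlapped between the pairs and stayed at 34.9 to 45.8 CPM, well above the 3.04 to 6.32 CPM of Arntl-high sham hearts. Per1 was at 162, 135, 211 and 193 CPM there, with the Arntl-high pair the higher, the opposite order to sham hearts. Cry2 had the same reversed order, at 63.9, 50.5, 101 and 89.0 CPM, as had Ciart, at 5.72, 3.32, 8.59 and 5.98 CPM. Npas2 was at 6.82 and 7.55 CPM in the first pair and 3.38 and 5.18 CPM in the Arntl-high pair. Nfil3 was at 14.2 and 14.1 CPM against 47.3 and 48.7 CPM in the Arntl-high pair, the direction of sham hearts.

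**Figure D5:**
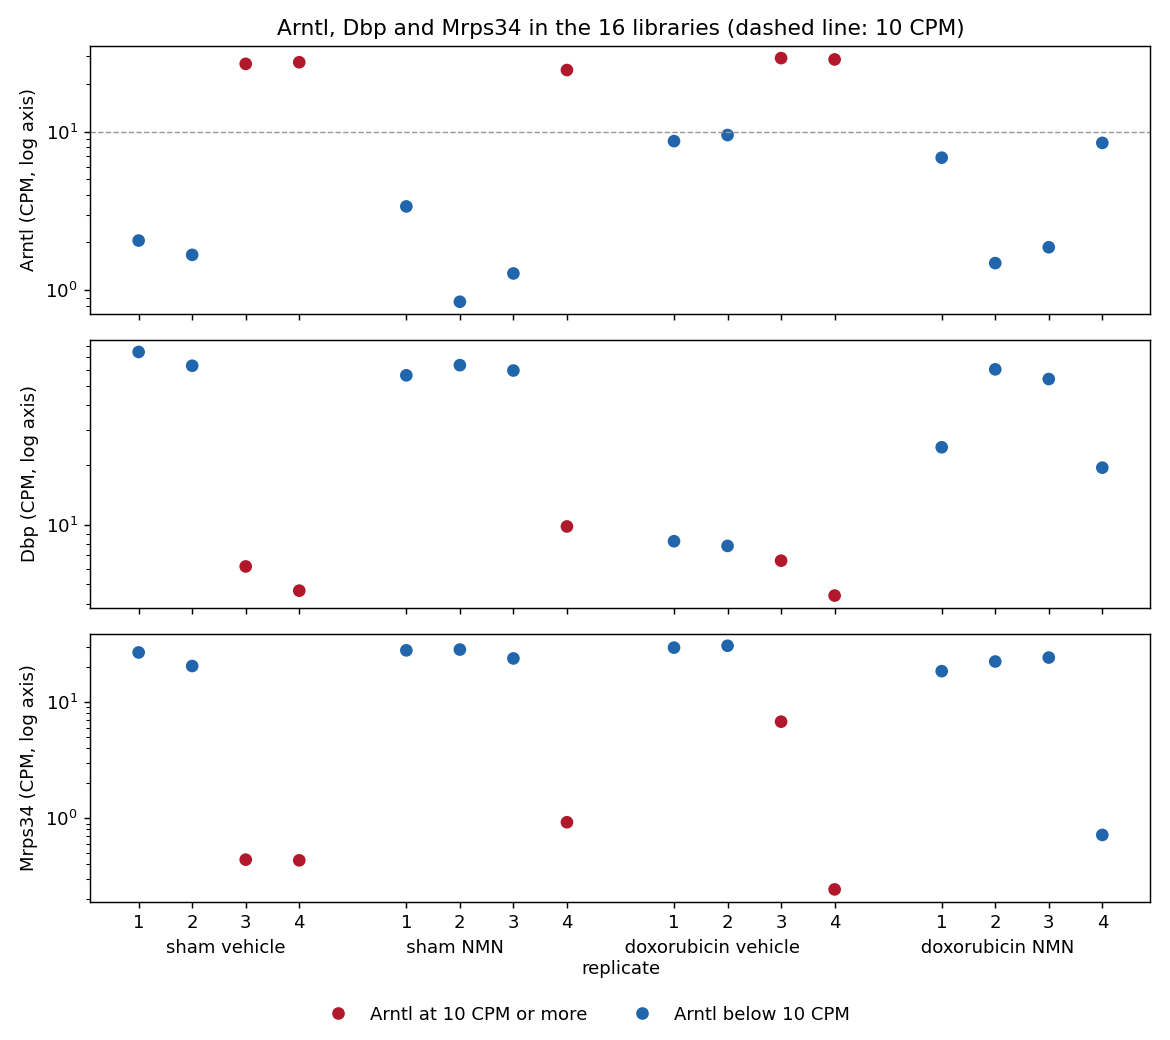
Level in CPM (log axes) of Arntl, Dbp and Mrps34 in all 16 libraries, by treatment group and replicate, with libraries of 10 CPM of Arntl or more (dashed line) in red and the others in blue. Arntl and Mrps34 split the same libraries in sham hearts and in doxorubicin vehicle hearts. Dbp is low in all 4 doxorubicin vehicle libraries, from 4.39 to 8.25 CPM.

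Across the wider set of genes, of 66 genes called higher in Arntl-high sham hearts and measured in doxorubicin hearts (Arntl left out), 20 were also higher in Arntl-high doxorubicin hearts (30.3%, where 41.7% of all genes were). Of the 66, 11 were called higher there and 24 were called lower. Of 121 called lower in sham hearts, 79 were lower (65.3%, where 58.3% of all genes were), with 27 called lower and 10 called higher. In doxorubicin hearts 3.90% of 12765 genes were called higher and 11.0% lower. Within doxorubicin vehicle alone, added after seeing the data, 25 of the 66 were higher (37.9%, all genes 37.1%) and 86 of the 121 lower (71.1%, all genes 62.9%), with 2.50% and 9.57% of genes called. There 8 of the 66 were called higher and 23 lower, and 40 of the 121 were called lower and 9 higher. Col3a1 and Col5a3, higher in Arntl-high sham hearts, were lower there: Col3a1 had a log2 difference of -2.76 in doxorubicin vehicle and Col5a3 one of -1.58. Eln stayed higher without overlap, at 0.27 there and at 0.81 over all doxorubicin hearts.

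The labels allow 1 test inside the sham hearts, NMN against vehicle, and it asks whether NMN alone changed expression in hearts that had no doxorubicin. It bears on the Arntl sets because 2 of 4 vehicle libraries and 1 of 4 NMN libraries were Arntl-high. EdgeR's quasi-likelihood test called 0 of 13957 genes (0%) at an adjusted p under 0.05, and 648 genes had an unadjusted p under 0.05. The smallest adjusted p was 0.924. DESeq2 called 2 genes, the beta-globins Hbb-bs and Hbb-bt, both lower with NMN.

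No clock gene passed: over 28 tested, log2 differences between NMN and vehicle ran from -1.01 to 0.55. Arntl averaged 14.4 CPM in vehicle and 7.48 CPM in NMN hearts, a log2 fold of -1.01 ± 1.05 (SE, n = 4 each) with an adjusted p of 0.934 from edgeR's quasi-likelihood test. Dbp had a log2 fold of 0.36 ± 0.80 (SE, adjusted p = 0.961, edgeR). Single libraries set these folds: without sham NMN replicate 4 that of Arntl was -2.98 (adjusted p = 0.419, edgeR) and without sham vehicle replicates 3 or 4 it was -0.52 or -0.53, and leaving out 1 library at a time took that of Dbp from -0.006 to 0.95. With the Arntl set as a term in the fit 0 genes were called and 797 had an unadjusted p under 0.05, and since Arntl made the sets, no fold of a clock gene is read from that fit. Within the 5 Arntl-low hearts alone, 3 of NMN and 2 of vehicle, 5 of 14299 genes were called (Slc7a1, Ubxn10, mt-Co2, Zbtb16 and Ppp1r3c). The Arntl level chose these hearts, so the calls are given as description only, beside the 0 of 13957 over all sham hearts. Zbtb16 stood at 244, 275 and 276 CPM with NMN and at 81.7 and 139 CPM with vehicle among them (log2 fold 1.27). Zbtb16, a zinc finger factor that glucocorticoids induce, was at 82.9 CPM in the Arntl-high NMN heart and at 59.3 and 70.3 CPM in the Arntl-high vehicle hearts.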

How the data were processed

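Mouse heart RNA was sequenced in 16 libraries, and the 8 sham libraries were described here. Per the submitters' processing notes, the tools were HISAT2 2.1.0 and HTSeq 0.6.0 and the build was GRCm38 (mm10). The sources used here do not state the annotation release or the strand setting. Per the labels' protocols the kit was NEBNext Ultra RNA, which does not keep the strand. The deposited tables give raw counts for 30884 genes and FPKM values, which the authors made from these counts (largest relative deviation from counts over totals and gene length, 1.3e-13). No replicates were pooled.

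Counts were divided by library totals to CPM, and log2 CPM used a prior count of 2. Genes with a mean of at least 1 CPM over the sham libraries (13105) were described. A gene was called different between the Arntl sets at 2-fold without overlap. Since a measured value made the sets, no p-value was computed for them, and a planned ranking of genes by likeness to Arntl is not reported, because the libraries fall into 2 clusters. Sham NMN was compared with sham vehicle by edgeR 4.0.16 (R 4.3.3, quasi-likelihood test, TMM, default filter, Benjamini-Hochberg), with a common dispersion of 0.022. The test was tried on simulated data first. Confidence limits were not drawn, and 3 counts were taken as the floor of a library. Alternatives were other scalings, prior counts, filters, folds and thresholds, the FPKM on a log2 scale with 0.1 added, vehicle libraries alone, adjustment for NMN, DESeq2 1.42.0, a replicate block, other sample sets, and each library left out. Chosen after seeing the data were centring in GC and length bins and the doxorubicin vehicle libraries alone.

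Named genes were the clock lists, the 12 highest and 12 lowest differences without overlap at a mean of at least 5 CPM in the higher set, up to 4 members of each other list with the largest difference, and Scand1, Cox11 and Mrps34. Further genes are named where a count is small, and some genes are not reported here. Members, lists and rules were chosen with earlier results of these data known. Genes were matched to GENCODE M21 and to RefSeq promoters (GRCm38.p6).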

Additional observations from a re-analysis of the deposited data

Results flagged for a closer look

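In groups of 4 libraries, a library was picked out where its gap to the nearest other, over the group's range, exceeded Dixon's 95% critical value, which chance does in about 1 in 20 groups. Of 168 sets (84 genes in each sham group), 35 were picked out, and 30 of them were sham NMN replicate 4, the only Arntl-high library of its group, which is how the Arntl sets divide that group. The 84 genes include those with the highest and lowest differences between the Arntl sets. That choice favours this library, so the count cannot be set against the chance rate.

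Sham NMN replicate 4 was the highest of its group for 18 genes. Among clock and clock output genes it had 24.4 CPM of Arntl, 69.1 of Clock, 9.01 of Npas2, 17.8 of Nfil3, 20.2 of Leo1 and 96.2 of Slc41a3. Among matrix and mural genes it had 245 CPM of Acta2, 65.7 of Adam19, 19.5 of Cnn1, 211 of Col1a1, 395 of Col3a1, 55.6 of Col5a3, 141 of Eln, 125 of Fbn1 and 6.10 of Spon2. The remaining values were 29.2 CPM of Egr1, 9.58 of Fos and 512 of Gja1.

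The same library was the lowest for 12 genes. These were Dbp at 9.79 CPM, Per2 at 6.32, Tef at 113, Usp2 at 83.2, Wee1 at 9.93, Tsc22d3 at 87.9, Zbtb16 at 82.9 and Ier3 at 13.7. The others were Cox5a at 82.8 CPM, Mrps24 at 14.5, Mrps34 at 0.923 and Scand1 at 0.142.

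Sham NMN replicate 3 was the highest for Nr4a1 (34.5 CPM) and Rbm3 (40.1 CPM). Sham vehicle replicate 4 was the highest for Chordc1 (49.6 CPM) and Idi1 (5.08 CPM). Sham vehicle replicate 2 was the lowest for Gja1 (382 CPM). In sham vehicle the Arntl sets split 2 against 2, which this rule does not pick out.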

How the results depend on the processing

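TMM, RLE and upper-quartile scaling, prior counts of 0.5 and 5, Arntl thresholds of 5 and 20 CPM (which gave the same sets), the FPKM, the adjustment for NMN and centring in GC and length bins kept the counts of 79 higher and 131 lower genes within 1.5 times. With no filter on low counts they were 169 and 244, at a mean of at least 5 CPM 36 and 82, and at 1.5-fold 283 and 362. In sham vehicle alone 213 genes were lower, and of 321 genes called there 177 were among the 210. Leaving out each library in turn gave 77 to 130 higher genes (130 without sham vehicle replicate 3) and 131 to 201 lower genes (201 without sham NMN replicate 4). Of the log2 differences of 84 genes, 20 moved by more than the libraries' spread in sham vehicle alone, 1 and 2 under the other prior counts and 2 under centring, and none that was called changed sign under any of these. Only sham NMN against vehicle was tested: DESeq2 and the edgeR test with no filter each called 2 genes (Hbb-bs, log2 fold -0.75 and -0.74, and Hbb-bt, -0.82 and -0.82), the Arntl-low libraries alone 5, and each library left out 0. With the replicate number as a block 0 genes were called and 887 had an unadjusted p under 0.05. Same-numbered sham libraries had correlations of 0.082, 0.225, -0.0997 and 0.431. Vehicle replicates 2 and 4 correlated best with the NMN library of their own number, and replicates 1 and 3 did not. The Arntl split enters these correlations, so whether the numbers pair the libraries cannot be told from them. The causes of the changes between settings were not tested. Depth limits what can be said of Scand1, at under 3 counts in each Arntl-high library.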

Other observations

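A few genes outside the lists, chosen after their values were seen, separated the same 3 sham hearts. Tcap, which encodes the sarcomere protein telethonin, was at 498 and 467 CPM in sham vehicle replicates 3 and 4 and at 595 CPM in sham NMN replicate 4, and the Arntl-low hearts ran from 1329 to 1478 CPM (log2 difference -1.46). Nkx2-5, a transcription factor of heart muscle identity, was at 21.0, 20.4 and 18.9 CPM against 46.7 to 63.7 CPM. Hand2, another cardiac transcription factor, was at 8.17, 8.31 and 9.30 CPM against 16.5 to 41.9 CPM. Klf2, a factor of endothelial cells under flow, was at 17.2, 21.1 and 19.4 CPM against 42.0 to 46.6 CPM. Noct, a phosphatase known for its rhythmic expression, averaged 28.1 ± 4.53 (SD, n = 3) and 56.8 ± 8.76 CPM (SD, n = 5). Tfrc, the transferrin receptor that takes up iron, stood the other way, at 235, 254 and 228 CPM against 69.1 to 158 CPM. These are values of genes picked for their difference and carry no test.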
